A study of Mus musculus with 18 samples.

Results

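The genes of striated muscle were examined in 18 mouse medulloblastomas, tumours of the cerebellum, because 1 of them, a transplanted tumour, carried their transcripts. The set holds 48 named genes for the contractile apparatus, calcium handling, the neuromuscular synapse, muscle metabolism and the control of muscle formation, out of 19938 measured genes, and each of the 48 had 1 probe set. RNA from each tumour had been extracted with Trizol and hybridised to an Affymetrix mouse Gene ST 1.0 array, and levels are log2 signals as deposited. Levels are compared between arrays for the same gene, never between genes. The 48 genes were chosen with the transplanted tumour's values in view, so its difference from the other arrays is a description and carries no test.

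The transplanted tumour is GFI-Ptch replicate 4, which the labels describe as progressed from another tumour and carried in a female NSG mouse, an immunodeficient host. The labels do not give the site of the graft. The other tumours were GFD-Smo;GFAP-cre (n = 4) and NG-Smo;Atoh1-CreER (n = 4), written GFD-Smo and NG-Smo below, and GFI-Ptch (n = 3 without the transplanted tumour), GFD-Ptch (n = 2) and NG-Ptch (n = 4). What NG, GFD and GFI stand for is not explained in the labels. Ptch tumours are named after the Hedgehog receptor and Smo tumours after the signal transducer that it holds back. GFAP-cre acts in cells that use the GFAP promoter, and Atoh1-CreER in cells that use Atoh1, a gene of granule neuron progenitors. In the Smo tumours subtype and Cre driver divide the arrays in the same way and cannot be told apart. The labels do not state that replicates came from separate animals, so p-values measure the spread between these samples, which may be technical.

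Skeletal muscle forms when myoblasts, under the basic helix-loop-helix factors Myf5, Myod1, Myf6 and Myog and the partner factor Mef2c, leave the cell cycle, fuse and build sarcomeres. Embryonic forms of myosin, troponin, actin and acetylcholine receptor are made first and adult forms replace them as fibres mature. Medulloblastomas arise from neural progenitors, and a rare human form that contains striated muscle cells is known to pathologists as medullomyoblastoma.

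Several arrays stood apart or went against a label before any muscle gene was considered. Averaged over its correlations with each other array across all genes, the transplanted tumour had 0.972, while the other arrays had 0.981 to 0.988. NG-Smo replicate 4 correlated about as closely with other groups (0.984) as with its own (0.985). GFI-Ptch replicates 1 to 3 correlated no more closely with their own group (0.983, 0.985 and 0.984) than with others (0.984, 0.987 and 0.984). Their own group holds the transplanted tumour. The mean level of 3 Y-linked genes went against the gender label in 3 of the 13 arrays with one. These were the transplanted tumour (labelled M, 5.37), GFD-Smo replicate 2 (labelled F, 10.05) and GFD-Smo replicate 3 (labelled M, 5.48). As to its tissue, the transplanted tumour kept Atoh1 at 12.01, within the 11.78 to 12.81 of the other 17 arrays. Gli1, a Hedgehog target, read 9.76 against 9.85 to 10.60 in the others, and Ptch1, also a target, read 10.62 against 11.21 to 12.88. The mean of 16 granule neuron progenitor genes was 10.94 in the transplanted tumour and 11.03 to 11.52 in the other arrays. Of these genes, 2 were below all 17 others and lower than their mean by at least 1, and 0 were as far above. The 2 genes were Pax6, at 10.10 against 10.25 to 11.90, and Hhip, at 8.71 against 8.74 to 11.03. In bulk tumour RNA, fewer cells of a type and less RNA per cell cannot be told apart.

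Promoters of 6 of the genes are shown because they belong to the regulator, structural and synaptic genes that the results turn on. The E-box, CANNTG on both strands, is the sequence that the myogenic helix-loop-helix factors bind, and it is in capitals. Each window, from RefSeq on GRCm38.p6, runs from 250 bases before to 50 bases after the gene's start and is read 5′ to 3′ along the gene. The windows lie at chr1:134289754-134290053 on the plus strand for Myog, chr1:75360042-75360341 on the plus strand for Des and chr1:66945007-66945306 on the minus strand for Myl1. Those of Actc1, Chrna1 and Chrng lie at chr2:114052826-114053125 on the minus strand, chr2:73580289-73580588 on the minus strand and chr1:87205561-87205860 on the plus strand.
Myog: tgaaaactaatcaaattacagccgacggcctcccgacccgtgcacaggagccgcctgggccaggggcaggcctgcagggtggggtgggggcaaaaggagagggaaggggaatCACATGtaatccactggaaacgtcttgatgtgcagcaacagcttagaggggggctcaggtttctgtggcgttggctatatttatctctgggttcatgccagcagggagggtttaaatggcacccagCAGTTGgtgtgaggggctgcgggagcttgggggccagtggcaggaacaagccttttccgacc
Des: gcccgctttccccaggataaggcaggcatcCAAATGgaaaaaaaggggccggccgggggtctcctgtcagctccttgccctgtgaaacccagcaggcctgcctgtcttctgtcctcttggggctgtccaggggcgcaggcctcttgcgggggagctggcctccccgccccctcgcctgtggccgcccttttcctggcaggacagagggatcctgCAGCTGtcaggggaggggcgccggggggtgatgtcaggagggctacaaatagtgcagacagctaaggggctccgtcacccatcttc
Myl1: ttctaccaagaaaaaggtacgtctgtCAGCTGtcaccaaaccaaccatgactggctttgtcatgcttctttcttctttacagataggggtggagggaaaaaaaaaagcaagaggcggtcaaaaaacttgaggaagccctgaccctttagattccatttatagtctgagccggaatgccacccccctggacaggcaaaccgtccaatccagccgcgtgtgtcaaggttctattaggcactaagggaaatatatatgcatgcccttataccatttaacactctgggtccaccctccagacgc
Actc1: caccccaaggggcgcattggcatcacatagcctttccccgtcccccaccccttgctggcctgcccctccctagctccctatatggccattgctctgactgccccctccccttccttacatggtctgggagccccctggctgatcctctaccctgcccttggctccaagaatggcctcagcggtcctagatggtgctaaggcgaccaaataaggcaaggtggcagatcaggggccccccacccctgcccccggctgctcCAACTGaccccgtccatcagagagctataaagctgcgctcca
Chrna1: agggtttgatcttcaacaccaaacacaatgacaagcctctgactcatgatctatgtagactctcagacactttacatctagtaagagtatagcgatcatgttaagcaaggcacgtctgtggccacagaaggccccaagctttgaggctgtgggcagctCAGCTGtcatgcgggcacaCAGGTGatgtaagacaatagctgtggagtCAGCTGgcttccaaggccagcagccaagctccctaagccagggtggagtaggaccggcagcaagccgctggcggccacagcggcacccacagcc
Chrng: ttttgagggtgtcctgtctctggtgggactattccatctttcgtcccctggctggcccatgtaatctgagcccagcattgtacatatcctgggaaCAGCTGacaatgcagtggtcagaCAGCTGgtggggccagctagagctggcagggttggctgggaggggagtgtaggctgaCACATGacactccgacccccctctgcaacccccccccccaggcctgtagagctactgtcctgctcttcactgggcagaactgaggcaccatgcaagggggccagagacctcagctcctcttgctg

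Of the 48 genes, 38 had a promoter in the RefSeq table, among 15614 of the measured genes. The E-box form CAGCTG, which is a subset of CANNTG, stood in 19 of the 38 promoters (50%) and in 15.9% of all 15614. Any CANNTG stood in 32 of the 38 (84.2%) and in 68% of all. Chrna1 and Chrng held 2 CAGCTG each, Des and Myl1 held 1 each, and the CANNTG of Myog and Actc1 had other inner bases. Among the genes that passed in the transplanted tumour 14 of 25 promoters held CAGCTG, and among the rest 5 of 13. In Myog the E-boxes began 138 and 12 bases before the start. A match is a description of the letters in the window and says nothing about binding.

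The transplanted tumour had a broad set of muscle transcripts above their levels in the other 17 arrays. Relative to the mean of the 17 arrays, 28 of the 48 genes were higher by at least 1 and above every one of the 17, and 0 were lower in the same sense. Of all 19938 genes, 280 (1.4%) met the upper rule and 284 (1.42%) the lower one. The median difference of the 48 genes was 1.61, against -0.03 over all genes, and single genes ranged from -0.85 for Pax3 to 4.63 for Myh3. The tumour was the highest of all 18 arrays in 36 of the 48 genes, and in 13.2% of all genes. Since these values chose the genes, the counts describe the tumour and support nothing further. With 1 array there is no replicate check.

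**Figure D1:**
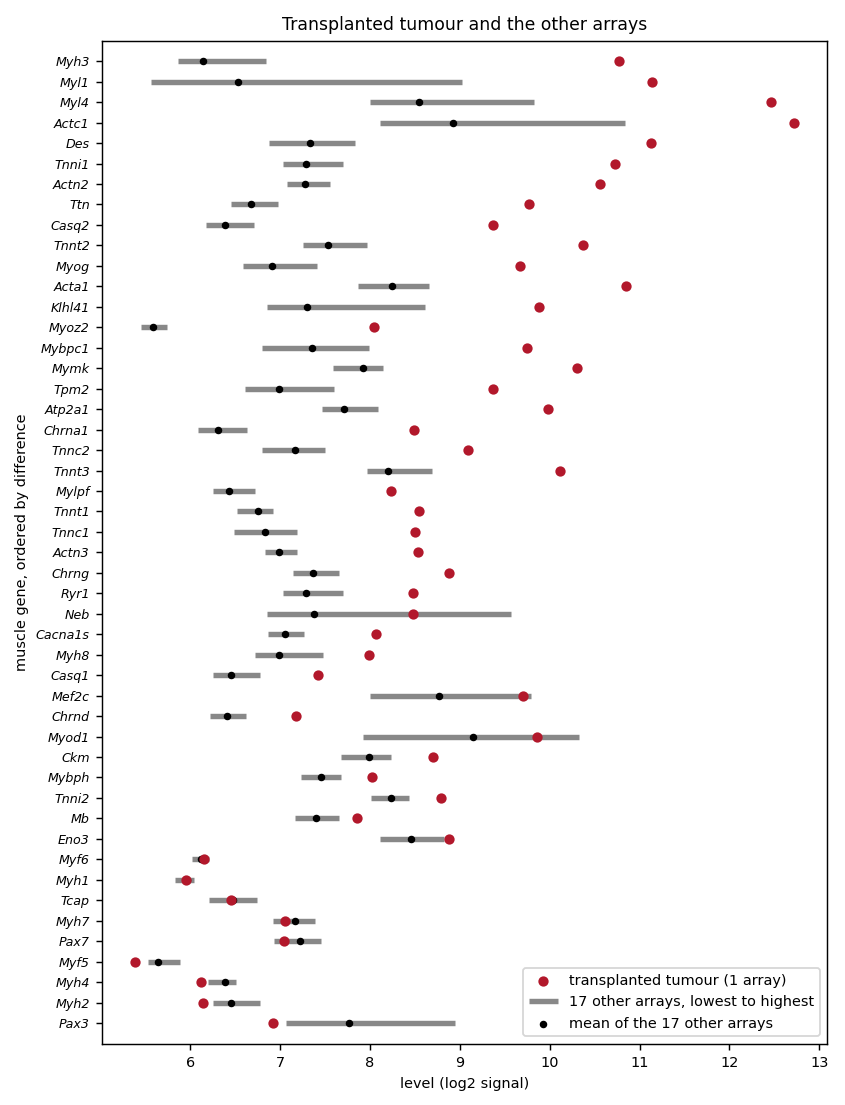
Level of each of the 48 muscle genes (log2 signal, horizontal axis) in the transplanted tumour (red point), with the lowest to highest level (grey bar) and the mean (black point) of the 17 other arrays. Genes run from the largest difference, Myh3 at 4.63, to the lowest, Pax3 at -0.85, and the red points lie outside the grey bars for most sarcomere genes.

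Among the motor proteins, the embryonic form stood out and the adult forms were not above the other tumours. Myh3, the embryonic myosin heavy chain, read 10.77 in the transplanted tumour. It read 6.37, 6.72, 6.84 and 6.62 in GFD-Smo replicates 1 to 4 and between 5.86 and 6.07 in the remaining 13 arrays. The difference of the transplanted tumour from the mean of the 17 arrays was 4.63, the largest of all 19938 genes. The mean of the 17 arrays, 6.14, was below the lower quartile of all probe sets on each array (6.21 to 6.38). Myh8, the perinatal form, read 7.99 in the transplanted tumour and at most 7.48 elsewhere, a difference just short of the threshold. The adult fast chains Myh1, Myh2 and Myh4 read 5.95, 6.14 and 6.12 in the transplanted tumour, and their means over the 17 arrays were 5.96, 6.45 and 6.39. Myh7, the slow and cardiac chain, read 7.06 in the transplanted tumour and averaged 7.17 in the others. Thus 1 of the 6 heavy chains passed the rule, and Myh2 and Myh4 were lower in the transplanted tumour than in every other array. Myh1, Myh2 and Myh4 lay below that lower quartile in the transplanted tumour. Their small differences are near the floor and are not read as a decrease.

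All 3 myosin light chains passed. Myl1, the essential light chain of fast fibres, read 11.14 in the transplanted tumour. Elsewhere it read 8.07, 8.75, 9.03 and 8.67 in GFD-Smo and 5.88, 6.92, 5.64 and 5.81 in NG-Smo replicates 1 to 4. In Ptch tumours it read 5.82, 5.77 and 5.88 in GFI-Ptch 1 to 3, 5.57 and 5.84 in GFD-Ptch, and 5.89, 5.81, 5.82 and 5.89 in NG-Ptch. The transplanted tumour thus stood above GFD-Smo, GFD-Smo above NG-Smo 2, and the 12 other arrays lay lower still. Myl4, the light chain of embryonic muscle and of the atrium, read 12.47 in the transplanted tumour. It read 9.14, 9.69, 9.83 and 9.47 in GFD-Smo and 8.14, 8.29, 8.35 and 8.23 in NG-Smo, and the Ptch tumours other than the transplanted one lay between 8.003 and 8.46. Mylpf, the regulatory light chain of fast fibres, read 8.23 in the transplanted tumour and 6.25 to 6.72 in the others.

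Of the 7 genes for actin filaments and the Z-disc, 6 passed. Actc1, the cardiac actin that embryonic skeletal muscle also makes, read 12.72 in the transplanted tumour. It read 10.23, 10.45, 10.84 and 10.76 in GFD-Smo and 8.11, 9.99, 8.34 and 8.18 in NG-Smo, and 8.14 to 8.52 in the other Ptch tumours. NG-Smo replicate 2 was the exception within its group, close to the lowest GFD-Smo array. Des, the muscle intermediate filament, read 11.13 in the transplanted tumour and at most 7.84 elsewhere. Actn2, which crosslinks actin at the Z-disc, read 10.56 in the transplanted tumour and 7.07 to 7.55 in the others, and Acta1, the adult skeletal actin, read 10.85 against 7.87 to 8.66 in those arrays. Actn3 and Myoz2 passed as well, with differences of 1.55 and 2.45. Tcap, the titin cap, read 6.45 in the transplanted tumour, near its mean of 6.48 in the others.

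Troponins and tropomyosin, which make contraction depend on calcium, were higher in 7 of 8 genes. The slow troponin I gene Tnni1 read 10.73 in the transplanted tumour and 7.03 to 7.70 in the others, while the fast gene Tnni2 read 8.79 against 8.01 to 8.44, a difference of 0.56. Tnnt2, the troponin T of heart and embryonic muscle, read 10.37 against 7.25 to 7.97. Tnnt1, Tnnt3, Tnnc1, Tnnc2 and Tpm2 differed by 1.67 to 2.38. Among the giant and thick filament proteins, Ttn, the molecular spring titin, read 9.77 against 6.46 to 6.98. Mybpc1, which binds myosin in slow fibres, was higher by 2.40 and Klhl41, a sarcomere-stabilising adaptor, by 2.58. Neb, nebulin of the thin filament, read 8.48 in the transplanted tumour, below the 9.57 of NG-Smo replicate 2, and Mybph was higher by 0.57.

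Calcium handling genes passed in 4 of 5 cases and acetylcholine receptor genes in 2 of 3. Casq2, the calcium store protein of cardiac and slow muscle, read 9.37 in the transplanted tumour and 6.18 to 6.71 in the others. Atp2a1, the calcium pump of fast fibres, read 9.98 against 7.47 to 8.09. Ryr1, the calcium release channel, and Cacna1s, its voltage sensor, were higher by 1.19 and 1.01, the smallest differences that passed, while Casq1 at 0.97 lay just outside. Of the receptor subunits, Chrna1 read 8.49 in the transplanted tumour and 6.08 to 6.63 in the others. Chrng, the fetal subunit, read 8.88 against 7.14 to 7.65. Chrne, the adult subunit that replaces it and is not among the 48, read 6.70 in the transplanted tumour and averaged 6.85 in the others. Chrnd was higher by 0.76.

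Of the metabolic genes of mature fibres, 0 of 3 passed. Ckm, muscle creatine kinase, read 8.71 in the transplanted tumour and at most 8.23 elsewhere. Mb, myoglobin, read 7.86 in the transplanted tumour and at most 7.66 elsewhere. Eno3, muscle enolase, read 8.88 in the transplanted tumour and up to 8.83 in GFD-Smo. The transplanted tumour was the highest array for each, by small margins.

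The regulators differed among themselves. Myog, which drives the terminal differentiation of myoblasts, read 9.67 in the transplanted tumour, and Mymk, the membrane protein that fuses myoblasts, read 10.30. For Myog the other arrays ranged over 6.59 to 7.42 and for Mymk over 7.59 to 8.14. Myf5 read 5.39 in the transplanted tumour and 5.53 to 5.89 in the others, Myf6 read 6.15 against 6.02 to 6.21, and Pax7, the satellite cell factor, read 7.04 against 6.93 to 7.46. Pax3, a factor of muscle and dorsal neural progenitors, read 6.93 in the transplanted tumour, the lowest of the 18 arrays. Thus 1 of these 7 regulators passed, in addition to the fusion gene.

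Myod1 and Mef2c were not particular to the transplanted tumour. Myod1 read 9.86 there, and 9.93, 9.84, 10.15 and 10.06 in GFD-Smo replicates 1 to 4. It read 8.92, 10.33, 9.89 and 8.58 in NG-Smo replicates 1 to 4 and 8.58, 8.81 and 7.92 in GFI-Ptch 1 to 3. In GFD-Ptch it read 8.46 and 8.63, and in NG-Ptch replicates 1, 2, 4 and 5 it read 8.30, 9.12, 8.02 and 9.89. The high levels were thus found in all GFD-Smo arrays, in 2 NG-Smo arrays and in 1 NG-Ptch array as well as in the transplanted tumour, which was the 7th highest of 18. Mef2c, which neurons also use, read 9.70 in the transplanted tumour, below the 9.79 of NG-Smo replicate 2, and 9.50, 9.35, 9.37 and 9.32 in GFD-Smo.

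**Figure D2:**
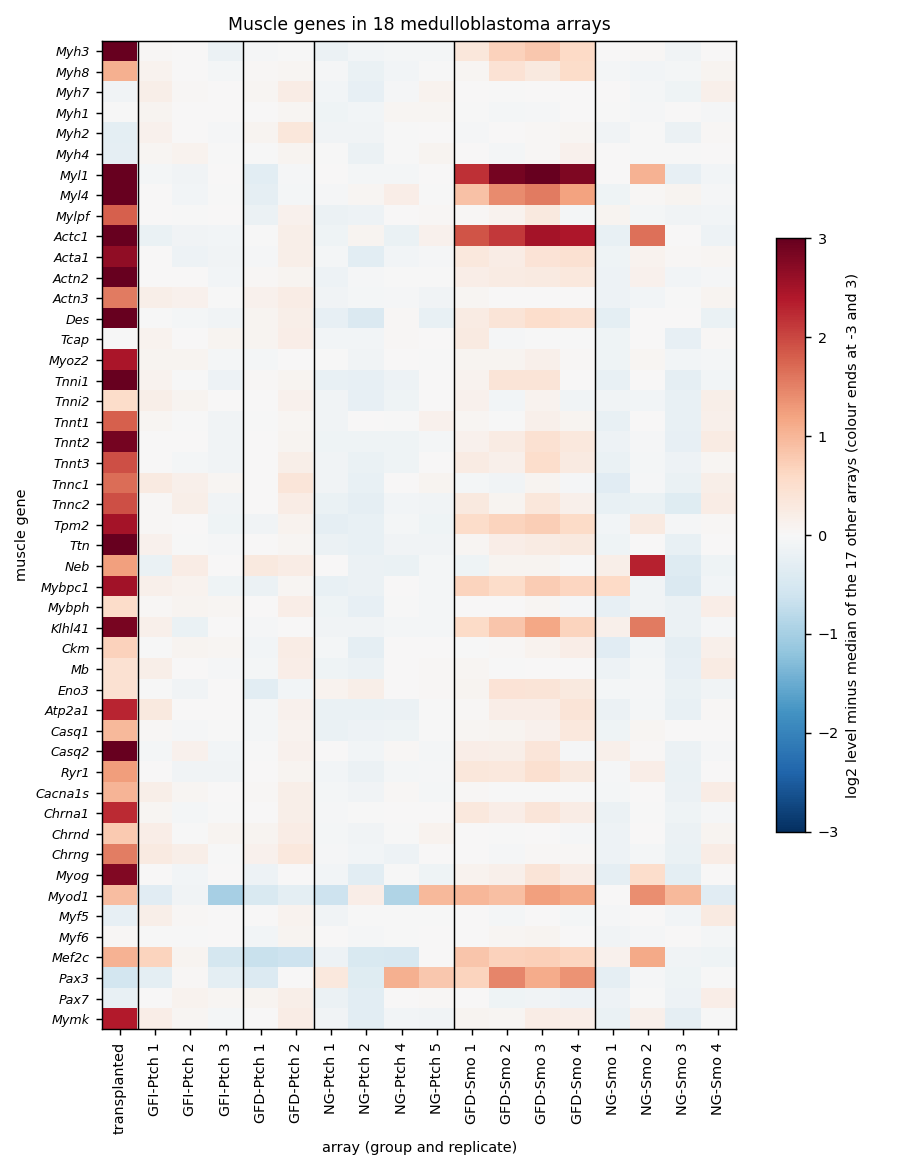
The 48 muscle genes (rows, grouped by role) in the 18 arrays (columns), coloured by the log2 level minus the median of the 17 arrays other than the transplanted tumour. The transplanted tumour has 31 genes at least 1 above that median, the GFD-Smo arrays have 3 to 6, NG-Smo replicate 2 has 6, and every other array has 0 or 1.

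Muscle genes outside the 48 behaved in part the same way. They were read on the same array, and the lists were chosen with earlier results of these data known. Their counts in the transplanted tumour are therefore a description and no independent evidence. Of 90 further genes of sarcomere, calcium handling, synapse, myoblast and muscle metabolism, 85 were measured, and in the transplanted tumour 13 passed the upper rule and 1 the lower, against 1.4% and 1.42% of all genes. Among 28 sarcomere genes 7 passed, with the myomesins Myom1 and Myom2, the leiomodins Lmod2 and Lmod3, Myot and Smyd1 higher by 1.51 to 1.94. Mymx, the partner of Mymk in fusion, read 9.83 in the transplanted tumour and 7.34 to 8.54 in the others. Chrnb1, a further receptor subunit, read 8.82 in the transplanted tumour and 6.55 to 7.28 in the others. Eya2 and Megf10 were higher by 2.43 and 1.57 and Eya1 lower by 1.56. Outside the sarcomere list, the remaining genes that passed were Srl and Cox8b. Of the same 85 genes limma called 9 higher and 1 lower in GFD-Smo than in NG-Smo, against 4.13% and 3.66% of all genes.

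Markers of other tissues were read by the same rule. Of 15 cardiac genes 0 passed in either direction. Nppa, a natriuretic peptide and the largest difference among them, read 7.96 in the transplanted tumour, above the 7.04 to 7.81 of the others. The heart muscle genes Myh6 and Tnni3 read within the range of the others, Myh6 at 6.599 in the transplanted tumour against 6.55 to 6.94 in the others and Tnni3 at 7.19 against 7.18 to 7.53. Of 10 smooth muscle genes 1 passed, Acta2, at 11.18 against 7.89 to 9.75. Tagln (8.39 in the transplanted tumour, at most 8.19 elsewhere) and Actg2 (7.41 and at most 7.23) also lay above all 17 others, while Myh11 read 7.02, below its 7.08 to 7.45 in the others. The mean of the smooth muscle list was 7.76 in the transplanted tumour and 7.28 to 7.70 in the others. Among 10 keratinocyte, 9 fat cell, 10 fibroblast, 10 endothelial, 10 macrophage and 8 lymphocyte genes, Acvr1c and Tek passed upward and Pdgfra downward. Of 12 neuron, 8 cartilage and bone and 5 Schwann cell genes, Gabra6, Alpl and Sox10 passed downward, and the mean level of each of these lists was below that of the 17 others. For the other lists the mean level was within the range of the 17 others for endothelial and macrophage genes, was 6.99 against 6.72 to 6.99 for fat cell genes, and was below that range for keratinocyte, fibroblast and lymphocyte genes. The part of these tissues in the muscle result was not tested.

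**Figure D3:**
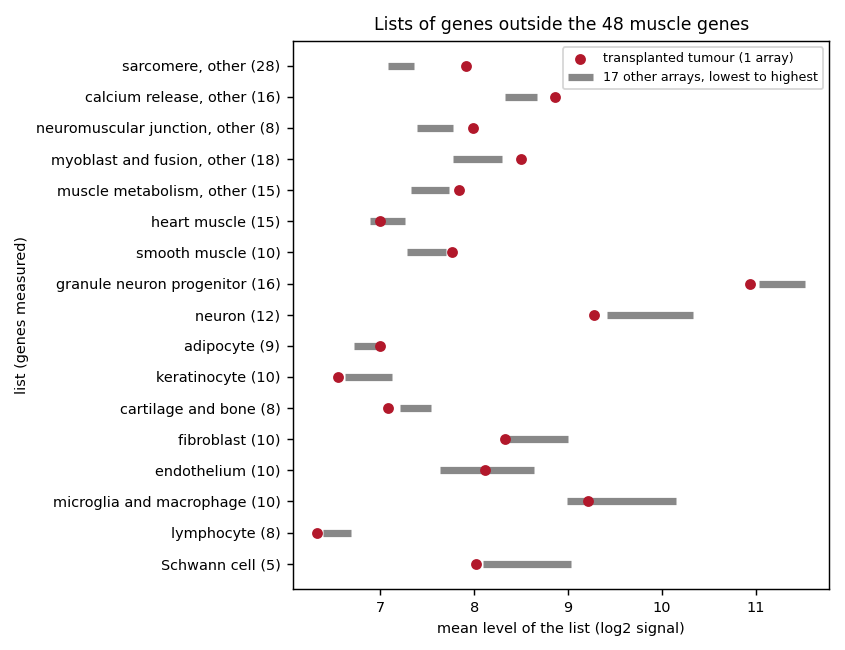
Mean level (log2 signal) of each list of genes outside the 48 in the transplanted tumour (red point) and from the lowest to the highest of the 17 other arrays (grey bar), with the number of genes measured in brackets. The point lies to the right of the bar for the 5 skeletal muscle lists, and also narrowly for smooth muscle and fat cell genes.

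Among the 17 other tumours, a number of muscle genes were higher in GFD-Smo than in NG-Smo. A fit with limma across all 19938 genes compared GFD-Smo with NG-Smo, without the transplanted tumour, and 18 of the 48 genes were higher in GFD-Smo and 0 lower at an adjusted p under 0.05. Of all genes 823 (4.13%) were higher and 730 (3.66%) lower. The median change of the 48 genes was 0.22, against -0.01 over all genes. The choice of the 48 genes, though made on the transplanted tumour, was made with this pattern known, so their count is not independent evidence.

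The largest increases were in the light chains and the embryonic actin. Myl1, with the values by array given above, averaged 8.63 ± 0.41 in GFD-Smo and 6.06 ± 0.58 in NG-Smo (SD, n = 4 each), a change of 2.57 (SE 0.23, limma adjusted p = 1.17e-05). The 4 GFD-Smo arrays all lay above the 4 NG-Smo arrays. Myl4 averaged 9.53 ± 0.30 in GFD-Smo and 8.25 ± 0.09 in NG-Smo, a change of 1.28 (SE 0.11, limma adjusted p = 9.60e-06). Actc1 averaged 10.57 ± 0.28 in GFD-Smo and 8.65 ± 0.89 in NG-Smo, a change of 1.92 (SE 0.31, limma adjusted p = 0.00130), with NG-Smo replicate 2 the highest of its group. Pax3 read 8.14, 8.94, 8.60 and 8.83 in GFD-Smo against 7.20, 7.44, 7.35 and 7.47 in NG-Smo, a change of 1.26 (SE 0.25, limma adjusted p = 0.00564). Pax3 thus ran the other way from the transplanted tumour, where it was lowest.

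The remaining 14 called genes changed by less than 1 on the log2 scale, among them Myh3 by 0.62 (limma adjusted p = 0.00026), Mybpc1 by 0.66, Tpm2 by 0.58 and Des by 0.53. Eno3, Tnnt3, Myh8, Chrna1, Tnni1, Ryr1, Acta1, Tnnt2, Ttn and Actn2 changed by 0.28 to 0.40. In 15 of the 48 genes all GFD-Smo arrays lay above all NG-Smo arrays, which held for 5.99% of all genes. Genes that stood out in the transplanted tumour but were not called here included Myog, at 7.01, 7.06, 7.30 and 7.13 in GFD-Smo against 6.64, 7.42, 6.61 and 6.91 in NG-Smo, and Mymk, at 7.98 to 8.13 against 7.65 to 8.07. Myod1 changed by 0.56 (limma adjusted p = 0.54) and its groups overlapped.

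**Figure D4:**
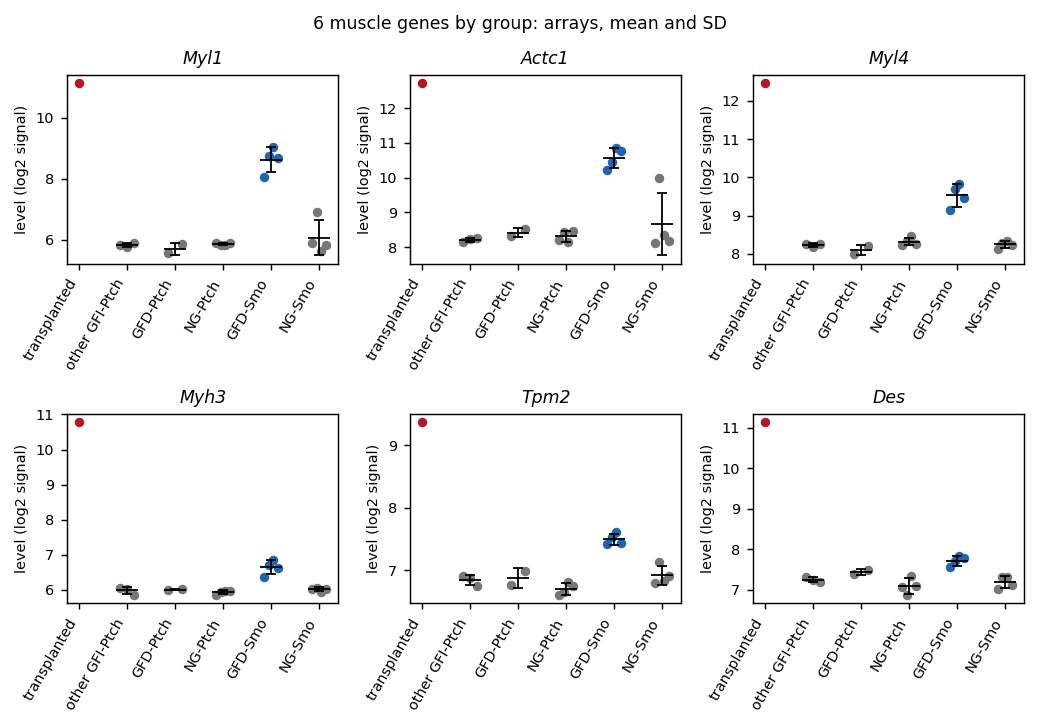
Levels (log2 signal) of 6 muscle genes by group, with a point for each array and the mean and SD of each group of more than 1 array. For Myl1 and Actc1 the GFD-Smo arrays lie between the transplanted tumour and the other groups, with NG-Smo replicate 2 standing above its own group.

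GFD-Smo replicates 2 and 3 were the arrays of that group that went against their gender labels, and without both the count was 7 of 48, with 1.32% of all genes higher. Pax3 was then not called (limma adjusted p = 0.102). These 7 genes, Actc1, Chrna1, Myh3, Myl1, Myl4, Tnnt3 and Tpm2, were also called in each other alternative fit that tested them, apart from the one that put the transplanted tumour back into the GFI-Ptch group, where 2 of 48 were called, Eno3 and Pax3. Markers of other cells moved in the same comparison. Of 10 fibroblast genes 5 were higher in GFD-Smo (Col1a1, Col1a2, Col3a1, Pdgfrb and Postn), the list's mean level being 8.65 to 8.99 in GFD-Smo and 8.41 to 8.67 in NG-Smo. Of 10 macrophage genes 6 were lower, at 9.42 to 9.69 in GFD-Smo and 9.99 to 10.15 in NG-Smo. Their part in the muscle result was not tested.

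NG-Smo replicate 2 was high in some of the genes that were high in GFD-Smo and in others that were not. There 6 genes stood at least 1 above the median of the 17 arrays, namely Myl1, Actc1, Neb, Klhl41, Myod1 and Mef2c, as did 0.682% of all genes. Klhl41 read 8.61 in NG-Smo replicate 2 and 7.62 to 8.20 in GFD-Smo, and Neb read 9.57 against 7.12 to 7.33. In the other NG-Smo arrays Klhl41 read 6.86 to 7.20 and Neb 6.86 to 7.43. With NG-Smo replicates 2 and 4 both left out, 24 of the 48 genes were called higher in GFD-Smo, and 3.44% of all genes. Replicate 2 was left out with its high muscle genes known, which lowers NG-Smo for those genes. The count of 24 therefore gives no support.

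A comparison added after the values were seen set GFD-Smo against GFD-Ptch. There 12 of the 48 genes were higher in GFD-Smo and 0 lower, while 11% of all genes were higher and as many lower. Myl1 averaged 8.63 in GFD-Smo and 5.70 in GFD-Ptch (n = 4 and 2), Actc1 10.57 and 8.42, and Myl4 9.53 and 8.10. Mef2c, which was not called against NG-Smo, averaged 9.38 in GFD-Smo and 8.02 in GFD-Ptch, a change of 1.36 (limma adjusted p = 0.00840), and was not called without GFD-Ptch replicate 2 (limma adjusted p = 0.068). This comparison shares the GFD-Smo arrays with the one against NG-Smo. With each array centred on its median, 10 members were higher and 7 lower, and over all genes 1696 were higher and 6681 lower, against 2192 and 2184 as deposited.

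In Ptch tumours other than the transplanted one, none of the 48 genes was called. In GFD-Ptch against NG-Ptch limma called 0 of the 48 genes, and 0.722% of all genes. At an unadjusted p under 0.05 it was 10 of the 48 and 21.6% of all genes. Both GFD-Ptch arrays lay above all NG-Ptch arrays in 22 of the 48 genes and below them in 3, which held for 20.6% and 14% of all genes, and the median change of the 48 was 0.14 against 0.04 over all genes. In GFI-Ptch, with 3 arrays, against NG-Ptch it called 0 of the 48 and 0.0251% of all genes, and at an unadjusted p under 0.05 it was 7 of the 48 and 13.3% of all genes. In NG-Smo against NG-Ptch it called 0 of the 48 and 1.93% of all genes, and at an unadjusted p under 0.05 it was 3 of the 48 and 13.2% of all genes. Myl1 averaged 5.70 ± 0.19 in GFD-Ptch and 5.85 ± 0.04 in NG-Ptch, and Actc1 8.42 ± 0.14 and 8.31 ± 0.16. Both comparisons of Ptch subtypes share the NG-Ptch arrays. The mean level of the 3 Y-linked genes was 9.84 in both GFD-Ptch arrays and 5.40 to 5.47 in the NG-Ptch arrays. Subtype and sex therefore cannot be told apart in GFD-Ptch against NG-Ptch.

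Whether the subtype difference in Smo tumours exceeded that in Ptch tumours was also tested after the values were seen. The change of GFD over NG was larger in Smo tumours for 6 of the 48 genes, with 0 smaller, while 3.82% of all genes were higher and 2.62% lower in that sense. Myl1 differed by 2.72 between the models (SE 0.37, limma adjusted p = 0.000812), Myl4 by 1.501 (SE 0.18, limma adjusted p = 0.000327) and Pax3 by 1.93 (SE 0.39, limma adjusted p = 0.0105). Actc1 differed by 1.80, Eno3 by 0.67 and Myh3 by 0.55. GFD-Ptch had 2 arrays, and the call was lost in 16 of the alternatives for Actc1, 6 for Myh3, 3 for Pax3, and 1 each for Myl1 and Myl4, the fit of all 18 arrays. Pax3 lost it with the gender label as covariate, without GFD-Ptch replicate 1, and without GFD-Smo replicates 2 and 3. Subtype and Cre driver coincide in Smo tumours and cannot be told apart in this difference. The same holds for subtype and sex in GFD-Ptch against NG-Ptch, which enters it.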

How the data were processed

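The authors deposited log2 signals of 35556 probe sets, and per the submitters' processing notes the authors used Partek 6.6. Background correction, normalization and probe summary are not given in the sources used here. Values ran from 4.219 to 14.318, and array medians from 7.736 to 7.868. The number of arrays limits the precision, and no depth applies.

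Probe sets with 1 gene symbol in the platform's probe table (21789; 1621 had several, 12146 none) were kept, and each gene was taken from its brightest one, by mean over the arrays, which left 19938 genes. The values of the transplanted tumour were set against the mean of the 17 other arrays, and a gene passed when it differed by at least 1 and lay outside all 17. The 17 arrays were fitted as 5 group means in limma 3.58.1 (R 4.3.3, 12 residual and 2.642 prior degrees of freedom), with Benjamini-Hochberg adjustment over all genes and a call at 0.05. The script was tested on simulated data. All 48 genes could be named. Other genes were named as the 20 highest and 10 lowest differences, up to 6 per list by size, and 5 Hedgehog and progenitor genes. Chrne, Myh6, Tnni3, Col1a1 and Col1a2 lie outside this rule and were chosen after their values were seen, as were the genes said to be so. Members and lists were chosen with earlier results of these data known. GFD-Smo against GFD-Ptch, the difference between models and the fits without pairs of arrays were added after the values were seen. Alternatives were quantile normalization, median centring, another choice of probe set, a filter on dim genes, all 18 arrays, a replicate block, the gender label as covariate, other summaries of the comparison arrays and leaving out each array.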

Additional observations from a re-analysis of the deposited data

Results flagged for a closer look

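In each group of 4 arrays, a gene's highest or lowest array was picked out where its gap to the nearest other array filled most of the group's range (Dixon's test at 95%). The transplanted tumour, whose values chose the genes, was left out, and GFI-Ptch without it has 3 arrays and was not tested. Over 144 groups of 4 values 10 were picked out, and chance picks out about 1 in 20. In NG-Ptch replicate 2, Acta1 (7.87), Myoz2 (5.49) and Mymk (7.59) were low, in replicate 5 Atp2a1 (7.67) was high, and in replicate 1 Myf5 (5.53) was low. In GFD-Smo, Myh7 was low in replicate 2 (7.14). The other arrays of that group shared the value 7.16, so a small gap filled the whole range. Tcap (6.74) and Cacna1s (7.08) were high in GFD-Smo replicate 1. In NG-Smo, Myh8 was high in replicate 4 (7.01) and Actc1 in replicate 2 (9.99).

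The change of GFD over NG was larger in Smo than in Ptch tumours by 1.8 for Actc1, 0.67 for Eno3, 0.55 for Myh3, 2.72 for Myl1, 1.5 for Myl4 and 1.93 for Pax3, in the limma test of the difference. Subtype and Cre driver cannot be told apart in Smo tumours, nor subtype and sex in GFD-Ptch against NG-Ptch.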

How the results depend on the processing

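Of the 28 genes that passed in the transplanted tumour, the number was 27 to 29, and the median difference of the 48 was 1.60 to 1.63, when each other array was left out in turn. A filter on dim genes left 14 of the 48, with a median of 2.10 and 8 passing. It kept 4 of the 14 only through the transplanted tumour's own levels, so these values give no support. No result reversed.

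For GFD-Smo against NG-Smo, leaving out 1 array gave 15 to 22 members and 1002 to 1722 genes, and without GFD-Smo replicates 2 and 3 together 7 members and 435 genes. The dim filter left 10 members to test and called 7, and the fit of all 18 arrays called 2. That fit includes the transplanted tumour, so its muscle gene values enter the spread. The centred arrays gave 701 genes higher and 991 lower, against 823 and 730. For GFD-Smo against GFD-Ptch, centring gave 8377 genes and the gender covariate 2824, and leaving out 1 array gave 7 to 14 members and 1451 to 5958 genes. Without GFD-Smo replicates 2 and 3 it was 7 members and 1721 genes, and with all 18 arrays 3 members. For the difference between models, centring gave 2392 genes (686 higher, 1706 lower, against 762 and 523), all 18 arrays 759 genes and 2 members, the gender covariate 418 genes and 3 members, and leaving out 1 array 517 to 1499 genes and 3 to 9 members. Without GFD-Smo replicates 2 and 3 it was 418 genes and 3 members.

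For GFD-Ptch against NG-Ptch, centring gave 266 genes and 1 member, all 18 arrays 2 genes, the gender covariate 0, and leaving out 1 array 6 to 689 genes and 0 to 1 members. For GFI-Ptch against NG-Ptch, all 18 arrays gave 0 genes and leaving out 1 array 1 to 30 genes. For NG-Smo against NG-Ptch, all 18 arrays gave 208 genes, the gender covariate 201 and leaving out 1 array 155 to 1169. Apart from the constructions named, the cause was not tested.

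Whether the replicate numbers in the titles pair the arrays could not be decided. Over 26 same-numbered pairs the deviations from group means correlated at -0.28 to 0.14, with 3 above 0.1. Differently numbered pairs were not set beside them, so these values have no baseline. With the replicate block, GFI-Ptch against NG-Ptch called 0 genes, GFD-Ptch against NG-Ptch 16, NG-Smo against NG-Ptch 127, and GFD-Smo against NG-Smo 16 members.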

Other observations

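The transplanted tumour also differed from the other arrays outside muscle. The largest upward differences included Slc5a12, a solute carrier (9.66 in the transplanted tumour, at most 6.08 elsewhere), Cdhr1, a cadherin of photoreceptors (10.34 and 7.20), Tex13b (9.34 and 7.65) and the interferon-induced genes Usp18 (10.44 and 8.58) and Ifit1 (9.42 and 7.78). Egln3, an oxygen-sensing enzyme induced in hypoxia, read 10.91 in the transplanted tumour and at most 9.63 elsewhere. The lowest relative to the others included glial genes. Ptprz1 read 6.87 in the transplanted tumour and 8.13 to 11.88 in the others, the GABA transporter Slc6a11 8.21 and 10.15 to 12.60, the bicarbonate transporter Slc4a4 7.19 and 8.24 to 11.87, and the connexin Gjc3 6.72 and 7.21 to 11.04. Mab21l2 showed the lowest difference of all, -4.05.

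A run of neighbouring genes on chromosome 2 was higher in the transplanted tumour. It was found after the values were seen, with windows of 11 genes in the order of the RefSeq table for GRCm38.p6, and the genes named here lie outside the naming rule. From Ggt7 to D630003M21Rik it holds 52 measured genes, of which 38 passed the upper rule, with a median difference of 1.47. In the other arrays, each against the remaining ones, the median over the same genes was -0.05 to 0.09. Samhd1 read 12.22 in the transplanted tumour and 9.90 to 10.25 in the others, Edem2 11.09 and 8.76 to 9.26, and Src 11.31 and 9.29 to 9.79. None of the 48 muscle genes lies in the run, although 7 of them are on chromosome 2. Of those 7, 6 passed the upper rule, against 28 of all 48. A link between the run and the muscle genes was not tested. Myl9, a smooth muscle and non-muscle light chain, lies within it and read 10.98 in the transplanted tumour and 8.41 to 9.34 in the others. Myh7b, a further myosin heavy chain gene in the run, was not raised, at 7.68 in the transplanted tumour and 7.27 to 7.77 in the others.

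The muscle microRNA genes were near the bottom of the array's range. Mir206 read 5.12 in the transplanted tumour and 4.77 to 4.83 in the others, Mir133a-2 read 5.46 and 5.30 to 5.45, and Mir1a-1 4.72 and 4.60 to 4.71. Mir499, which lies in the run on chromosome 2, read 5.47 in the transplanted tumour, below the 5.57 to 5.77 of the others. All of these were chosen after their values were seen, and the array was made for longer transcripts.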
